A study of Mus musculus with 6 samples.

Results

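Chemokine ligands are the small secreted proteins that direct the migration of leukocytes and some other cells. They were taken from the gene tables of the 6 libraries by symbol, as every gene named Ccl or Cxcl with a number, together with Cx3cl1 and Xcl1. The rule found 39 genes among the 56884 gene IDs of each table, 24 of the Ccl class, 13 of the Cxcl class, 1 Cx3cl and 1 Xcl. A ligand was regarded as expressed where its TPM (a share of all transcripts, corrected for transcript length) was 0.5 or more in 3 or more libraries, and 16 of the 39 were. The study overexpressed PPARγ2, the master regulator of adipocyte differentiation, in a mouse cell line derived from the stromal vascular fraction (SVF) of subcutaneous white adipose tissue (scWAT). One group carried PPARγ2 K382Q, in which glutamine replaces a lysine and mimics its acetylated state, and the other carried PPARγ2 K382R, in which arginine mimics the deacetylated state. RNA was sequenced from 3 biological replicates of each mutant at day 2 of beige adipocyte differentiation. Both groups shared the immortalized line, the retroviral vector with puromycin selection, and the induction medium of isobutylmethylxanthine, indomethacin, dexamethasone, insulin, T3 and rosiglitazone. Each mutant was a selected stable line, and the labels do not say whether its replicates came from separate transductions, so the p-values measure only the spread between these libraries. The comparison asks how the ligands differed between the acetylation mimic and the deacetylation mimic, and it has no arm without an overexpressed mutant.

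Chemokines are grouped by the spacing of their first cysteines into the CC, CXC, CX3C and XC classes, and they act on G protein-coupled receptors that are carried mostly by leukocytes. Many of their genes lie side by side in chromosome clusters that arose by duplication. In adipose tissue, stromal cells and adipocytes secrete chemokines that recruit monocytes, neutrophils and T cells, and inflammatory cytokines and interferons are known inducers of several of them.

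The libraries held 5.95 to 7.50 Gb of aligned bases in K382Q and 6.53 to 8.15 Gb in K382R. Counts were not analysed here, so no counting interval is given, and the read depth over a gene (its mean coverage per base) is given where levels were low. Pparg, the overexpressed gene, had a TPM of 1333, 1164 and 1104 in K382Q and 1590, 1632 and 1612 in K382R, and these values hold reads of the vector and of the line's own gene alike. Coverage of Pparg was 66.4 to 83.0 reads per base in K382Q and 97.05 to 122 in K382R. Set against its TPM, this read depth was low. Of 12 leukocyte markers, 3 were expressed (Cd68, Cd14 and S100a8), the summed TPM of all 12 was 13.3 to 14.4 in K382Q and 15.4 to 17.5 in K382R, Adgre1 and Cd3e were listed at 0 in all 6 libraries, and Ptprc reached at most 0.0129. Of 5 endothelial markers only Pecam1 was expressed, and the summed TPM of the list, of which Pecam1 was most, was 1.60 to 2.25 in K382Q and 1.71 to 1.94 in K382R. Kdr, which was under the threshold and not tested, had a TPM of 0, 0.0327 and 0.0356 in K382Q. In K382R it had 0.0978, 0.165 and 0.138, with no overlap, while the groups overlapped for Cdh5, Tek and Vwf.

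The promoters of the 6 strongly expressed ligands that differed by more than 2-fold (mean TPM of at least 10 in both groups) are shown first, since these genes carry most of the difference described below. Each line is the 250 bases before the start of the canonical transcript in GENCODE mouse release M39, on build GRCm39 and on the strand of the gene. They are chr11:81926147-81926396 for Ccl2 and chr11:81936282-81936531 for Ccl7 on the plus strand, chr11:83421346-83421595 for Ccl5 and chr11:83469468-83469717 for Ccl9 on the minus strand, chr5:91038844-91039093 for Cxcl1 on the plus strand, and chr5:92496749-92496998 for Cxcl10 on the minus strand. Capitals mark letters that match one of the 4 searched motifs.
Ccl2: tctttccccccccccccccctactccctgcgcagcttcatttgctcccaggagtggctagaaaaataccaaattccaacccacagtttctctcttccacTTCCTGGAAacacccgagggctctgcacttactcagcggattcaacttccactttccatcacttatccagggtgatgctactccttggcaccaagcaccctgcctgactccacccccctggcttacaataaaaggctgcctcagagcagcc
Ccl7: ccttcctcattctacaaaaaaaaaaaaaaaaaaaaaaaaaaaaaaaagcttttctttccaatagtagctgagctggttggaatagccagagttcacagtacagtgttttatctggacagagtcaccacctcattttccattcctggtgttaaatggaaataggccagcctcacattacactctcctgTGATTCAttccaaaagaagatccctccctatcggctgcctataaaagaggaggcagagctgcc
Ccl5: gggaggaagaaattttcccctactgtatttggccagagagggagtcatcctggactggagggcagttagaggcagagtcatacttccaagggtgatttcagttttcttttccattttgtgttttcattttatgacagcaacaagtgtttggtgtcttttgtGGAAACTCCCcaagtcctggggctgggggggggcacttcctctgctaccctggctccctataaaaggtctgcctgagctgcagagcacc
Ccl9: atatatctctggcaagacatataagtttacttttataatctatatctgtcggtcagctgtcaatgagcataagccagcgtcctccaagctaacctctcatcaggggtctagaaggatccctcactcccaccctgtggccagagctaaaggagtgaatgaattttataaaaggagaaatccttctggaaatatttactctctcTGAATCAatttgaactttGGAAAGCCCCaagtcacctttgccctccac
Cxcl1: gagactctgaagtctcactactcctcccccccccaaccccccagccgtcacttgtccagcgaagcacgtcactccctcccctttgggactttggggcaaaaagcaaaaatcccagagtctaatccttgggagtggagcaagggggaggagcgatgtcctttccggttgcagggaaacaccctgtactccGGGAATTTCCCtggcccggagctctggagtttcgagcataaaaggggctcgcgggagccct
Cxcl10: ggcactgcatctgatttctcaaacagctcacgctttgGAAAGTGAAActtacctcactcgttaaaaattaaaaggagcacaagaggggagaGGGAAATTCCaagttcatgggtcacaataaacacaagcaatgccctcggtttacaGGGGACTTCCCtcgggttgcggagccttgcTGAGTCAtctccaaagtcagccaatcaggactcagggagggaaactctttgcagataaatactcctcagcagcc

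The motifs were searched on both strands, and matches that overlapped each other are joined in capitals. They were the paired half-sites of the interferon-stimulated response element (GAAANNGAAA), the interferon-gamma-activated sequence (GAS, TTCNNNGAA), the AP-1 motif (TGANTCA) and the kappaB motif of NF-κB. Over the promoters of 21757 protein-coding genes, the same windows held these motifs in 3.32%, 7.70%, 6.18% and 7.63% of cases. The kappaB motif occurred in 6 of the 13 ligands called lower in K382Q (Ccl5, Ccl9, Cxcl1, Cxcl2, Cxcl5 and Cxcl10) and in 3 of the other 26 ligands (Ccl1, Ccl20 and Cxcl3). Of those 26, 23 were not expressed and so not tested, which makes this mostly a contrast of expressed with unexpressed genes. The 4 CXCR2 ligand genes Cxcl1, Cxcl2, Cxcl3 and Cxcl5, which lie in 1 cluster, carried the same letters, GGGAATTTCC, beginning 61, 69, 75 and 108 bases before the start, although Cxcl3 was not expressed. The paired interferon half-sites occurred in 1 of the 13 (Cxcl10) and in 2 of the other 26, the GAS motif in 1 (Ccl2) and 5, and the AP-1 motif in 3 (Ccl7, Ccl9 and Cxcl10) and 1. These matches describe the letters in a short window, and factor binding was not measured in these data.

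Of the 16 expressed ligands, 13 were lower in PPARγ2K382Q- than in PPARγ2K382R-overexpressing cells at an adjusted p-value under 0.05 (limma, Benjamini-Hochberg adjustment over 15426 genes), against 36.9% of all genes tested. The 13 were Ccl2, Ccl5, Ccl7, Ccl8, Ccl9, Ccl25, Cxcl1, Cxcl2, Cxcl5, Cxcl9, Cxcl10, Cxcl16 and Cx3cl1. Ccl27a alone was called higher in K382Q, a direction called in 11.1% of all genes, and Cxcl12 and Ccl17 were not called. A decrease of more than 2-fold was called for 9 ligands (Ccl2, Ccl5, Ccl7, Ccl8, Ccl9, Cxcl1, Cxcl5, Cxcl9 and Cxcl10), against 2.61% of all genes, while Ccl27a did not reach the 2-fold increase that was called in 1.27%. All K382Q libraries lay below all K382R libraries for the same 13 ligands (42.8% of all genes), and above them for Ccl27a (14.1%). The median log2 fold change of the 16 ligands was -1.31, beside -0.14 over all genes tested. Ccl8, Cxcl5 and Cxcl16 reached a TPM of 0.5 in only 1 K382Q library each and passed the expression threshold through K382R, where they were higher, so the counts and the median describe the 16 ligands and are not evidence on all 39. In bulk RNA, fewer cells making a ligand and less RNA of it per cell cannot be told apart.

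**Figure D1:**
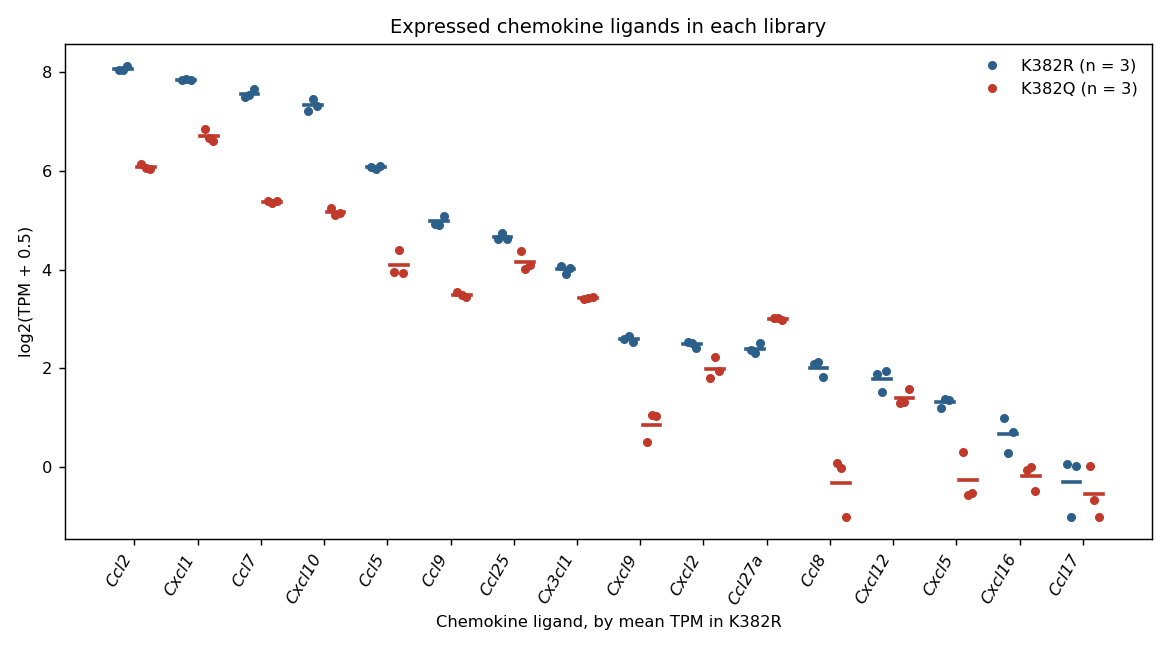
Level of each expressed ligand on the log2(TPM + 0.5) scale, with 1 point for each library, blue for K382R, red for K382Q and a line at each mean (n = 3). The K382Q points lie below the K382R points for 13 ligands, above them for Ccl27a, and among them for Cxcl12 and Ccl17.

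The difference was carried by few genes. The summed TPM of all 39 ligands was 337, 316 and 307 in K382Q and 981, 1017 and 1030 in K382R, so the K382R mean of 1009 ± 25.4 (SD, n = 3) was 3.16 times the K382Q mean of 320 ± 15.6. Ccl2, Cxcl1, Ccl7, Cxcl10 and Ccl5 together made up 82.4 to 82.8% of this sum in K382Q and 90.0 to 90.5% in K382R. The CC ligands summed to 161 ± 5.24 in K382Q and 587 ± 21.5 in K382R, a ratio of 3.64. The CXC ligands summed to 148 ± 10.7 and 406 ± 15.9, a ratio of 2.74. The CC share of all chemokine transcripts was thus 49.4 to 51.1% in K382Q and 56.9 to 59.4% in K382R, with no overlap between the groups. These sums and shares were not tested.

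**Figure D2:**
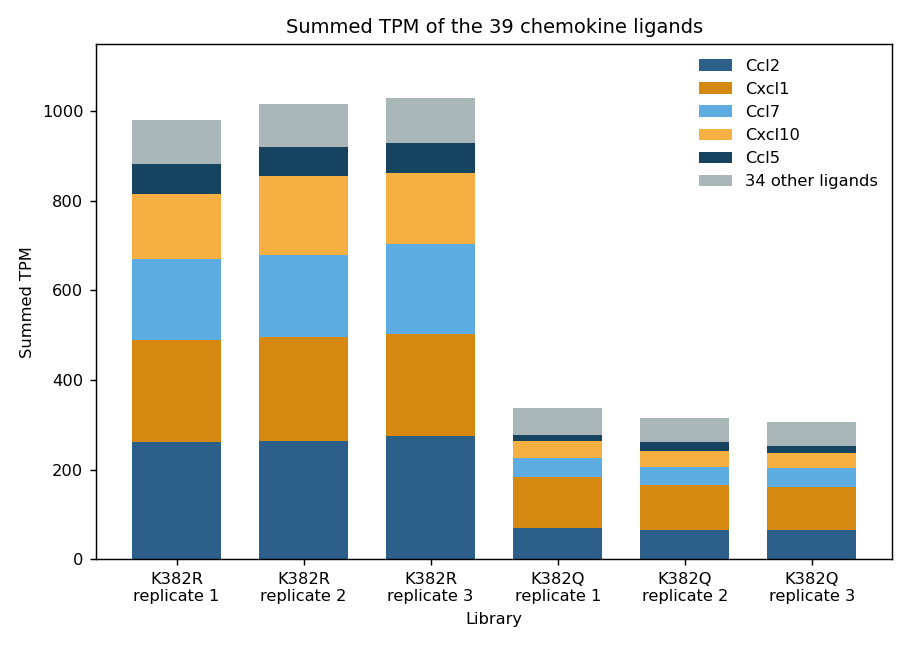
Summed TPM of the 39 chemokine ligands in each library, stacked by ligand from 0. Each K382R library reaches at least 981 and each K382Q library at most 337, and Ccl2, Cxcl1, Ccl7, Cxcl10 and Ccl5 fill most of every bar.

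The monocyte-attracting ligands of CCR2 had the highest summed level in K382R. Ccl2, also known as MCP-1, lies at chr11:81926397-81928279 of the deposited tables and had a TPM of 69.7, 65.8 and 65.3 in K382Q and 263, 264 and 276 in K382R. The libraries of each mutant were close together and far from those of the other, with a log2 fold change of -1.99 ± 0.04 (SE) and an adjusted p-value of 1.99e-07. Ccl7, also known as MCP-3, lies next to it at chr11:81936538-81938351 and had a TPM of 41.3, 40.0 and 41.5 in K382Q and 179, 185 and 202 in K382R. Its log2 fold change was -2.19 ± 0.05 with an adjusted p-value of 2.51e-07, and the K382R mean was 4.60 times the K382Q mean. Ccl12, another CCR2 ligand of the mouse in the same cluster, was listed at 0 in all 6 libraries. CCR2 ligands made up 32.9 to 34.8% of the chemokine sum in K382Q and 44.1 to 46.3% in K382R.

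Ccl8, a ligand of CCR8 in the mouse that attracts type 2 helper T cells, belongs to the same cluster and was expressed at a low level. Its TPM was 0.565, 0.486 and 0 in K382Q and 3.76, 3.84 and 3.04 in K382R. Coverage was 0 to 1.495 reads per base in K382Q and 7.66 to 12.2 in K382R, so the K382Q level rests on few reads. The log2 fold change was -2.32 ± 0.29 with an adjusted p-value of 0.000407, and it ranged from -3.42 with a pseudocount of 0.1 to -1.56 with FPKM. With its neighbours, 3 of the 6 genes between Ccl2 and Ccl1 were expressed, and each of the 3 was more than 2-fold lower in K382Q (2.61% of all genes), Ccl8 having passed the threshold through K382R. The cluster summed to a TPM of 108 ± 2.96 in K382Q and 460 ± 18.6 in K382R.

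**Figure D3:**
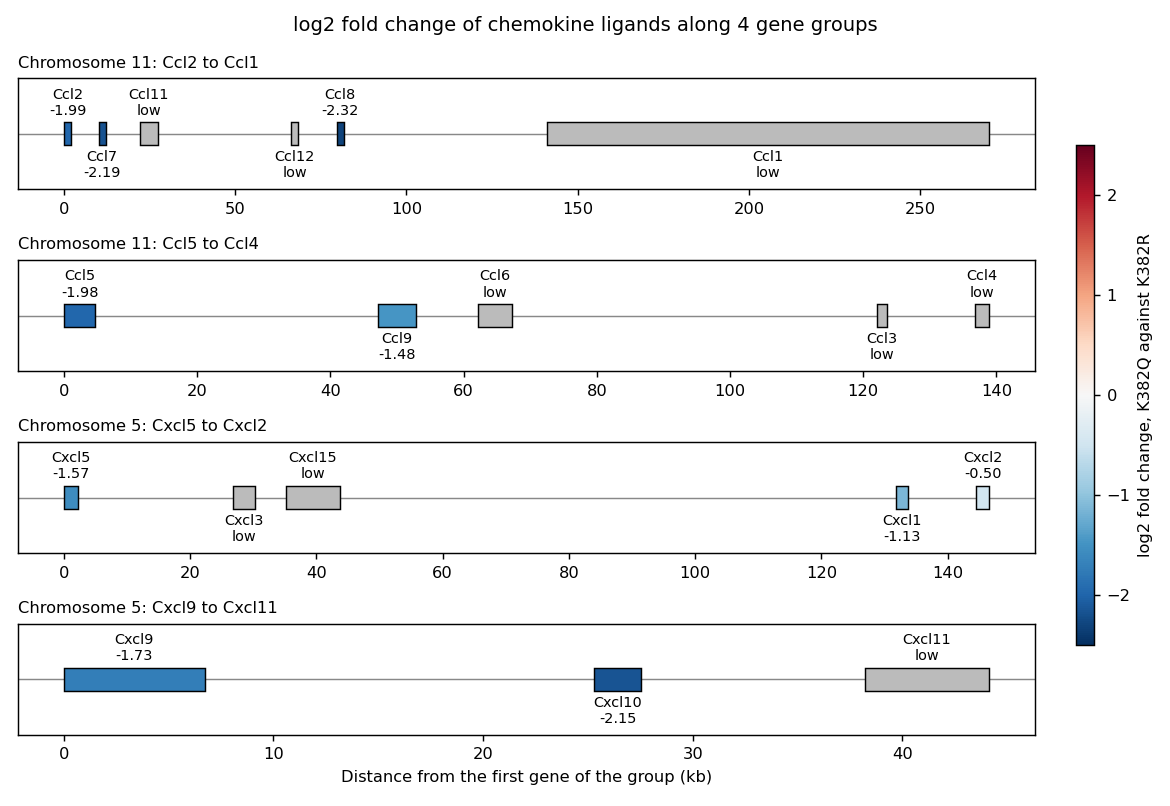
Position of the ligand genes in 4 chromosome clusters, as distance in kb from the first gene, coloured and labelled by log2 fold change (K382Q against K382R), with grey and "low" for genes under the expression threshold. The expressed genes run from -2.32 (Ccl8) to -0.50 (Cxcl2), where 2.72% of all genes tested lie below -1, and Ccl8 and Cxcl5 passed the expression threshold through K382R.

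Ccl5 (RANTES), a ligand of CCR1 that attracts T cells and macrophages, had a TPM of 14.9, 20.6 and 14.8 in K382Q and 67.2, 65.3 and 68.0 in K382R. One K382Q library, replicate 2, was higher than the other two but remained far below K382R, and the log2 fold change was -1.98 ± 0.12 with an adjusted p-value of 9.75e-06. Ccl9, a CCR1 ligand of myeloid cells, had a TPM of 11.1, 10.8 and 10.4 in K382Q and 29.8, 29.5 and 33.6 in K382R. It was lower in K382Q by a log2 fold change of -1.48 ± 0.06 with an adjusted p-value of 2.74e-06. Both genes lie in a second cluster of chromosome 11, at chr11:83416604-83421344 and chr11:83463745-83469462. The other members of this cluster, the macrophage inflammatory proteins Ccl3 and Ccl4 and the CCR1 ligand Ccl6, did not reach the expression threshold, with TPM of at most 0.211, 0.130 and 0.417. Ccl2 and Ccl5 were also followed by the study in these cells, so their differences are not independent of its choice of genes.

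The CXCR2 ligands attract neutrophils, and their expressed members were Cxcl1, Cxcl2 and Cxcl5. Cxcl1 (KC), at chr5:91039100-91040974, had a TPM of 115, 101 and 96.4 in K382Q and 228, 231 and 227 in K382R. The 6 values separated by mutant, with a log2 fold change of -1.13 ± 0.06 and an adjusted p-value of 5.81e-06. With median-ratio scaling it was -0.98, still lower in K382Q but no longer a 2-fold decrease. Cxcl2 (MIP-2), its neighbour at chr5:91051730-91053797, had a TPM of 2.98, 4.16 and 3.33 in K382Q and 5.31, 5.19 and 4.80 in K382R. The gap between the groups was small, with a log2 fold change of -0.50 ± 0.13 and an adjusted p-value of 0.0129. With median-ratio scaling its adjusted p-value was 0.0604.

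Cxcl5 (LIX), a further CXCR2 ligand of the cluster at chr5:90907219-90909483, was close to the expression threshold in K382Q, with a TPM of 0.736, 0.181 and 0.193 against 1.80, 2.10 and 2.07 in K382R. Coverage was 0.453 to 1.62 reads per base in K382Q and 4.46 to 5.76 in K382R. The log2 fold change was -1.57 ± 0.25 with an adjusted p-value of 0.00149, and it ranged from -2.35 with a pseudocount of 0.1 to -0.98 with FPKM in place of TPM. Cxcl3 reached a TPM of at most 0.311 and Cxcl15, which is known from the lung, was listed at 0 in all 6 libraries. The CXCR2 ligands summed to a TPM of 108 ± 9.61 in K382Q and 236 ± 2.55 in K382R, a ratio of 2.18 where the CCR2 ligands had 4.23. Whether these ratios differ was not tested.

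Cxcl9 (MIG) and Cxcl10 (IP-10) bind CXCR3 on activated T cells and natural killer cells and are textbook targets of interferon signalling. Cxcl10, at chr5:92494497-92496748, had a TPM of 37.5, 34.0 and 35.0 in K382Q and 146, 175 and 157 in K382R. The lowest K382R library was several times the highest K382Q library, and the log2 fold change was -2.15 ± 0.07 with an adjusted p-value of 7.03e-07. Cxcl9, at chr5:92469206-92475938, had a TPM of 0.916, 1.57 and 1.54 in K382Q and 5.58, 5.79 and 5.26 in K382R. Its log2 fold change was -1.73 ± 0.17 with an adjusted p-value of 0.000101. Cxcl11, the remaining CXCR3 ligand and the last gene of this cluster, did not reach the threshold, with a TPM of 0.0612 to 0.215 in K382Q and 0.229 to 0.334 in K382R. CXCR3 ligands made up 11.3 to 12.0% of the chemokine sum in K382Q and 15.5 to 17.8% in K382R.

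The order of the most abundant ligands by TPM differed between the mutants. Ccl2 ranked first and Cxcl1 second in each K382R library, whereas Cxcl1 ranked first and Ccl2 second in each K382Q library. Ccl7 held rank 3 and Cxcl10 rank 4 in all 6 libraries. These ranks hold for TPM only, since the coverage of Ccl7 in K382R (508 to 588 reads per base) was above that of Cxcl1 (295 to 387). The TPM of Cxcl1 divided by that of Ccl2 was 1.65, 1.54 and 1.48 in K382Q and 0.868, 0.875 and 0.823 in K382R. This ratio was chosen after its values were seen and was not tested.

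Cx3cl1 and Cxcl16 are the transmembrane chemokines. Cx3cl1 (fractalkine), which binds CX3CR1 on monocytes and is released from the membrane by proteases, had a TPM of 10.1, 10.2 and 10.4 in K382Q and 16.3, 14.5 and 15.8 in K382R. The groups did not overlap, and the log2 fold change was -0.58 ± 0.06 with an adjusted p-value of 0.000207. Cxcl16, the CXCR6 ligand and a scavenger receptor for oxidized lipoproteins, had a TPM of 0.463, 0.504 and 0.212 in K382Q and 1.49, 0.720 and 1.142 in K382R. Its log2 fold change was -0.85 ± 0.25 with an adjusted p-value of 0.0233. The call depended on single libraries, since the adjusted p-value was 0.0717 without K382Q replicate 3, 0.0797 without K382R replicate 1 and 0.0653 without K382R replicate 3.

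Cxcl12, the CXCR4 ligand that retains hematopoietic cells in their niches, had a TPM of 1.96, 1.98 and 2.49 in K382Q and 3.20, 2.38 and 3.36 in K382R. The groups overlapped in 1 library each, and the log2 fold change of -0.39 ± 0.16 had an adjusted p-value of 0.0706. Without K382R replicate 2, the lowest of its group, it was -0.52 with an adjusted p-value of 0.0293. Ccl17 (TARC), a CCR4 ligand, passed the threshold narrowly with a TPM of 0.523, 0.132 and 0 in K382Q and 0.544, 0 and 0.520 in K382R, and the 2 groups were not told apart (adjusted p-value 0.650).

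**Figure D4:**
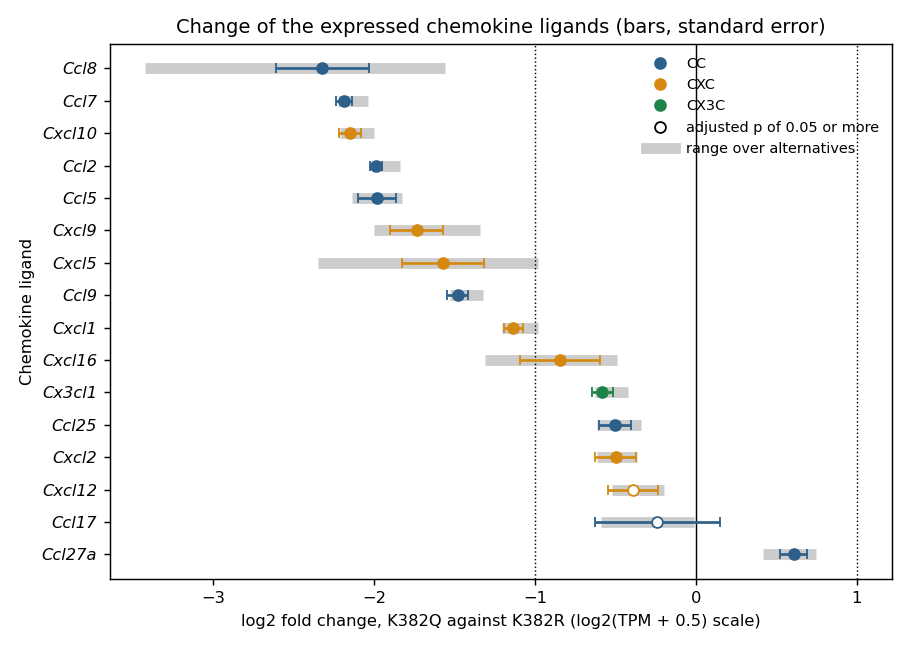
Log2 fold change (K382Q against K382R, log2(TPM + 0.5) scale) of each expressed ligand with its standard error, coloured by class, over a grey bar that spans the values under the alternatives of processing. Open circles mark an adjusted p-value of 0.05 or more, and dotted lines mark a 2-fold change. Only Ccl27a lies above 0.

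Ccl27a, the CCR10 ligand known from skin keratinocytes, was higher in K382Q, with a TPM of 7.59, 7.60 and 7.43 against 4.70, 4.46 and 5.20 in K382R. The libraries of both groups were close together, and the log2 fold change was 0.61 ± 0.08 with an adjusted p-value of 0.000667. Coverage was 4.8 to 6.0 reads per base in K382Q and 3.4 to 4.4 in K382R. With scaled coverage in place of TPM the log2 fold change was 0.42, the smallest increase over all alternatives. Ccl27a lies at chr4:41769467-41774247 and overlaps Il11ra1 on the other strand, which shares 19 of the 2700 exonic bases of Ccl27a (0.704%) in GENCODE M39. Il11ra1 itself was lower in K382Q, with a mean TPM of 22.4 against 28.8 and a log2 fold change of -0.35 ± 0.06 (adjusted p-value 0.00241). Ccl27a made up 2.25 to 2.42% of the chemokine sum in K382Q and 0.439 to 0.505% in K382R. This share differed more than Ccl27a itself, since the K382R sum was 3.16 times the K382Q sum. The mean TPM of Ccl27a was 1.575 times as high in K382Q as in K382R. Ccl27b, a copy of it nearby, reached a TPM of at most 0.126, and reads could be split between such copies by the counting.

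Ccl25 (TECK), the CCR9 ligand of thymus and small intestine, had a TPM of 20.4, 15.6 and 16.5 in K382Q and 24.2, 26.3 and 24.0 in K382R. It was lower in K382Q by a log2 fold change of -0.50 ± 0.10 with an adjusted p-value of 0.00378. Its gene at chr8:4375210-4410020 overlaps Elavl1 on the other strand, and 604 of the 12537 exonic bases of Ccl25 (4.82%) are shared in GENCODE M39. Elavl1, which encodes the RNA-binding protein HuR, was lower as well, with a mean TPM of 37.5 in K382Q and 49.6 in K382R, a log2 fold change of -0.40 ± 0.05 and an adjusted p-value of 0.000425. The strand setting of the quantification is not given in the sources used here, so reads of Ccl25 and Elavl1 from the shared bases cannot be told apart without it. Coverage of Ccl25 was 4.04 to 4.92 reads per base in K382Q and 5.41 to 7.69 in K382R, where coverage is averaged over all annotated exons and TPM adds up transcripts.

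The 23 other ligands were not expressed by the rule. Ccl12, Ccl19, Ccl21a, Ccl21b, Ccl21d, Ccl24, Ccl26, Cxcl15 and Xcl1 were listed at 0 in all 6 libraries. They include the CCR7 ligands of lymph nodes and 2 of the 3 ligands grouped here under the eosinophil receptor CCR3. Ccl21a, Ccl21b and Ccl21d are near-identical copies. The remaining 14 reached at most a TPM of 1.155. Cxcl14, the highest of them, had 0.167, 0.349 and 0.146 in K382Q and 0.299, 0.491 and 1.155 in K382R. Cxcl13, the B cell chemokine that binds CXCR5, had 0.546, 0.278 and 0.707 in K382Q and 0.0707, 0.101 and 0.281 in K382R. Only 1 library of each group overlapped for Cxcl13, at a coverage of 0.213 to 1.73 reads per base over all libraries, and no test was made of it. Ccl1, Ccl3, Ccl4, Ccl6, Ccl11, Ccl20, Ccl22, Ccl27b, Ccl28, Cxcl3, Cxcl11 and Cxcl17 all stayed under a TPM of 0.5. At the threshold, the TPM reached in 3 libraries was 0.520 for Ccl17 and 0.720 for Cxcl16 just inside, and 0.349 for Cxcl14 and 0.281 for Cxcl13 just outside.

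The receptors of these ligands were mostly listed at or near 0. Of 28 genes listed for the pathway (18 receptors, 5 atypical receptors, 3 proteases that cut or shed chemokines, and the platelet chemokines Pf4 and Ppbp), only Ccr10, Adam10 and Adam17 were expressed. Ccr2, Ccr3, Ccr6, Ccr7, Ccr8, Cxcr1 and Cxcr3 were listed at 0 in all 6 libraries, as were Pf4, Ppbp and the protease Dpp4. Ccr10, the receptor of Ccl27a, had a TPM of 1.01, 1.42 and 1.48 in K382Q and 1.26, 0.897 and 1.23 in K382R and was not called (log2 fold change 0.14 ± 0.18, adjusted p-value 0.551). Ackr3, the scavenging receptor of Cxcl12, reached a TPM of at most 0.402, and Ccrl2, which presents chemerin, at most 0.6004.

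Both proteases that shed Cx3cl1 and Cxcl16 from the membrane were lower in K382Q. Adam10 had a TPM of 64.4, 59.6 and 62.0 in K382Q and 75.0, 74.6 and 76.8 in K382R, with a log2 fold change of -0.28 ± 0.04 and an adjusted p-value of 0.000638. Adam17 had 49.7, 47.4 and 46.0 in K382Q and 57.2, 59.9 and 59.3 in K382R, with -0.30 ± 0.04 and 0.000676. With median-ratio scaling and quantile normalization the log2 fold changes were -0.13 and -0.12 for Adam10 and -0.15 and -0.14 for Adam17, and all 4 stayed under an adjusted p-value of 0.05. They were 2 of 3 expressed pathway genes, against 36.9% of all genes called in this direction.

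Mesenchymal precursor markers were lower in K382Q, as most expressed ligands were, while adipocyte markers differed in both directions. Of 6 mesenchymal precursor markers, 5 were expressed and all 5 were called lower in K382Q (36.9% of all genes tested), with log2 fold changes of -0.88 for Pdgfra, -0.75 for Pdgfrb, -0.996 for Col1a1, -1.25 for Thy1 and -0.72 for Ly6a. The summed TPM of all 6 was 508 to 552 in K382Q and 866 to 903 in K382R. Of 6 adipocyte markers, Adipoq (-1.28), Cebpa (-0.82), Pparg (-0.43) and Lpl (-0.19) were lower in K382Q (36.9% of all genes), Fabp4 (0.34) was higher (11.1% of all genes), and Plin1 was not called. Pparg is the overexpressed gene, so its values include the vector and do not describe adipocyte state alone. Their summed TPM, of which Fabp4 was most, was higher in K382Q (50210 to 53860) than in K382R (42090 to 43220). The part of these differences in the chemokine values was not tested. Among the leukocyte markers Cd14 was lower in K382Q (log2 fold change -0.32, adjusted p-value 0.0203), and Cd68 and S100a8 were not called. Of the 9 leukocyte markers under the expression threshold, which were not tested, Fcgr1 had a TPM of 0.0587, 0.128 and 0.0582 in K382Q and 0.382, 0.272 and 0.372 in K382R, with no overlap. Csf1r had 0.0269, 0.00619 and 0.0269 in K382Q and 0.0236, 0.0744 and 0.144 in K382R, with overlap, while Ptprc, Adgre1 and Cd3e were at or near 0 as given above. The part of these markers in the chemokine values was not tested.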

How the data were processed

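RNA of 6 libraries (3 K382Q, 3 K382R) was measured by RNA-seq. The authors extracted RNA with an RNeasy Micro kit, prepared NEBNext Ultra libraries, aligned reads to GRCm39 with HISAT2 and quantified genes with StringTie, as stated in the submitters' processing notes and the study's methods. The annotation release and the strand setting are not given in the sources used here. The authors deposited TPM, scaled to the same total in each library, so that it shows shares of transcripts. The deposited FPKM is scaled to the aligned bases of the library. The deposited coverage is the signal per exonic base without normalization, and the median of its ratio to FPKM over genes with a single transcript in GENCODE M39 was taken as the aligned bases. In other genes the ratio can be lower (8.9 to 10.3% of the library's value for Ccl25 and 2.3 to 2.5% for Pparg).

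Up to 5 repeated gene entries of a library were summed. The 15426 genes that reached a TPM of 0.5 in 3 or more libraries entered 1 fit of all 6 libraries in limma (3.58.1, R 4.3.3), with log2(TPM + 0.5) as the response, a trended variance and Benjamini-Hochberg adjustment. The log2 scale with a pseudocount understates the change of low genes. A call was an adjusted p-value under 0.05, and a DEG also had a fold change over 2. Every expressed ligand and every expressed pathway gene is named. Members, gene lists and tests were chosen with earlier results of these data known, and the receptor groups came from general knowledge. Each ligand was grouped by its main receptor only, and some bind others as well. Clusters join genes on 1 chromosome whose starts are within 1 Mb of the next. Exact two-sided tests of single values could not go below a p-value of 0.1 with 3 against 3 and were not used. All 39 gene IDs were found in GENCODE M39 (17 with the same start and end), which served for promoters, exon overlaps and transcript numbers only, with coordinates of genes taken from the deposited tables. No library was a copy of another, since no pair shared the same value in more than 0.0117% of genes. A gene of the receptor list is not reported here. Alternatives were other pseudocounts (1 and 0.1), no filter or a TPM of at least 1, FPKM, median-ratio scaling, quantile normalization, no trend, the replicate number as a block and each library left out in turn, with scaled coverage added after seeing the data. Python 3.11.15, pandas 2.3.3, numpy 2.4.6 and matplotlib 3.10.9 were used for the other steps.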

Additional observations from a re-analysis of the deposited data

How the results depend on the processing

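Over 16 alternatives, 12 to 14 ligands were called lower in K382Q, 1 was called higher, and 8 to 10 were DEGs, the 8 with FPKM and with median-ratio scaling and the 10 with a pseudocount of 0.1 and without K382R replicate 2. The share of all genes called was taken in the main fit only (36.9% lower and 11.1% higher in K382Q). The share of all genes with a log2 fold change below -1 was 2.72% in the main fit. Over the alternatives it ran from 1.52% with FPKM to 4.57% with a pseudocount of 0.1. Cxcl5 was no longer a DEG with FPKM (-0.98), nor was Cxcl1 with median-ratio scaling (-0.98). No expressed ligand changed direction, though Cxcl16 and Ccl17 could not be tested at a TPM of at least 1. The median log2 fold change of all genes tested was 0.003 with median-ratio scaling in place of -0.14, and over all alternatives the smallest decreases of Ccl2, Ccl7 and Cxcl10 were -1.84, -2.04 and -2.001. Without the filter on low values, 4 receptor and processing genes were called in place of 2, since Ccrl2 (log2 fold change -0.44) and Cxcr5 (-0.14) were then tested. Both calls rest on few reads. Cxcr5 was listed at 0 in K382Q and had a TPM of 0.0378 to 0.0643 in K382R, at a coverage of at most 0.138 reads per base. Coverage of Ccrl2 was 0.437 to 0.643 in K382Q and 0.987 to 1.72 in K382R. Cxcl16 had an adjusted p-value of 0.0609 without the filter, and its log2 fold change ranged from -1.31 with a pseudocount of 0.1 to -0.49 with FPKM. Leaving out each library in turn gave 12 to 14 ligands lower, and log2 fold changes of -1.03 to -0.68 for Cxcl16 and -0.62 to -0.41 for Cxcl2. With coverage scaled to 1 total, chosen after seeing the data, 13 ligands were lower, 1 was higher and 9 were DEGs.

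Replicate numbers did not pair the libraries, since the correlations of same-numbered libraries were -0.02, 0.05 and 0.02. With the replicate number as a block, the counts stayed at 13 lower, 1 higher, 9 DEGs and 2 receptor and processing genes.

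Depth limits what can be said of Ccl8, Cxcl5, Cxcl16 and Ccl17, which had under 2 reads per base in K382Q.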
